A study of Mus musculus with 6 samples.

Results

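Matricellular proteins are secreted into the space around cells and signal to them rather than bear load, and 10 of their genes were followed here in C2C12 mouse myoblasts under cyclic stretch. The genes were the thrombospondins Thbs1, Thbs2 and Thbs3, the CCN genes Ccn1 and Ccn2, the tenascin Tnc, periostin (Postn), Sparc, osteopontin (Spp1) and Ccdc80. They were picked by symbol, with the difference between the groups already known, from the 32815 gene rows of the deposited table, and all 10 were found. The level of each is therefore described, and no test was applied to it. A mean of at least 1 FPKM over all libraries was asked of every gene tested elsewhere in the table, and 9 of the 10 reached it. Postn did not.

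The 2 groups of wild-type C2C12 cells, an immortalised myoblast line, were sequenced as poly(A) RNA. The MS group (3 libraries) had 8 h of cyclic mechanical stretch at 1 Hz, given by bending the culture plate with a displacement of 4 mm. The design text writes MS6 beside the 8 h and does not say what the 6 stands for. The control group (3 libraries) is labelled only as control, and the sources used here do not say whether those plates were handled alike. The 3 libraries of a group are not said to come from separate cultures, and their spread may be technical. Levels are FPKM, fragments scaled to transcript length and to the library's total, as the authors deposited them, so the levels of different genes can be set side by side, while the depth of each library is unknown.

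Thrombospondins bind calcium, other matrix proteins and cell receptors such as CD47 and integrins, and thrombospondin-1 can release TGF-beta from its latent form. CCN1 and CCN2 bind integrins and heparan sulfate, and their genes are textbook targets of the YAP/TEAD and SRF/MRTF factors that respond to mechanical load. Tenascin-C, periostin, SPARC and osteopontin are best known from growing, healing or mineralising tissue, and several of them return in injured muscle.

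The start sites are shown because most of these genes were lower together. RefSeq windows (build GRCm38.p6, whereas the deposited coordinates are mm39) were found for 7 of the 10 genes. Thbs1, Ccn2 and Ccdc80 had none and were not searched. The 250 bases before the start site are printed for 3 of the 7. Ccn1 was a gene with a much lower level in MS that holds matches, Thbs2 was one that holds none, and Spp1 kept nearly the same level. Capitals mark matches to GGAATG or its complement (the core of TEAD sites) and to TATAAA on the sense strand. The lines run 5′ to 3′ on the gene's strand.
Ccn1, chr3:145649986-145650235, minus strand: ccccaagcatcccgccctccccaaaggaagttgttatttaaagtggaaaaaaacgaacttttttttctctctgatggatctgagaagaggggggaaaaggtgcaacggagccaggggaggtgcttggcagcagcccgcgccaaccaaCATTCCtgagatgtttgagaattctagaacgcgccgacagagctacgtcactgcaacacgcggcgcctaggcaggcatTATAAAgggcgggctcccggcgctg
Thbs2, chr17:14694263-14694512, minus strand: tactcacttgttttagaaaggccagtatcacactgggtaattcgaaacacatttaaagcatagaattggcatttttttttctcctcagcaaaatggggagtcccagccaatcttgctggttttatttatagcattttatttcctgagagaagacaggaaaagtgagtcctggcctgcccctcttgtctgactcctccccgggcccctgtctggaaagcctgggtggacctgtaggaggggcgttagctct
Spp1, chr5:104434861-104435110, plus strand: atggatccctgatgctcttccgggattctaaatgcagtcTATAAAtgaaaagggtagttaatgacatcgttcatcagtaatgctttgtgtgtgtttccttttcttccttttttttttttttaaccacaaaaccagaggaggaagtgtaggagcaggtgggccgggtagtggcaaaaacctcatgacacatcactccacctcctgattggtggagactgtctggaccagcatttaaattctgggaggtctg
The Ccn1 window held CATTCC, the complement of GGAATG, from base -103 to -98 and TATAAA from base -25 to -20. GGAATG on either strand was found in 12.64% of all 32851 RefSeq windows of that length, and TATAAA in 7.592%. The Spp1 window had TATAAA only at base -211 to -206, and Thbs2 had neither. Neither TGANTCA (AP-1, either strand, in 6.749% of windows) nor the CArG box of SRF (in 1.467%) occurred in any of the 10 windows of the 7 genes, and motifs searched did not overlap in the windows printed. Postn held TATAAA from base -26 to -21 in its other window, and nothing in that at the RefSeq gene start. Tnc held TATAAA from base -126 to -121 before the RefSeq gene start. Thbs3 and Sparc held none of the motifs searched. Matches of this kind are descriptions of the letters and say nothing of binding.

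Over all tested genes each library was most like those of its own group, with Pearson r of log2(FPKM + 1) from 0.9796 to 0.9937 within groups and from 0.9334 to 0.9556 between them, the highest between groups being MS 1 with control 3. Some transcripts followed other lines. Control 3 and MS 1 carried tongue and salivary gland transcripts, summing over 14 of 15 listed genes to 252 FPKM in MS 1 and 229 FPKM in control 3, against 10.8 to 12.2 FPKM in the other 4 libraries, and none of the 14 was at 0 in every library. Kidney transcripts (15 of 15 listed genes found, none at 0 throughout) summed to between 101 and 111 FPKM in the 3 MS libraries and 101 FPKM in control 3, and to 3.81 and 4.31 FPKM in control 1 and control 2, with Kap making up most of each high sum. Lens genes (14 of 15 found, none at 0 throughout) were lowest in MS 1, at 314 FPKM, and in control 3, at 263 FPKM, against 783 to 1059 FPKM elsewhere. Differentiated muscle genes (12 of 12 found, none at 0 throughout) followed the tongue list, at 80.8 FPKM in MS 1 and 61.4 FPKM in control 3, against 2.53 to 3.99 FPKM. Myoblast markers were present in every library, summing to 78.1 to 95.9 FPKM in MS and 102 to 125 FPKM in control. Of the 10 listed, 8 passed the filter, of which 6 were called lower and 0 higher in MS. Over all tested genes 23.2% were called lower and 30.6% higher. Des, the largest part of each sum, was not called, Pax7 was at or near 0 and Myod1 averaged under 2 FPKM in each group. Since control 3 and MS 1 were alike in tongue, lens and muscle transcripts, MS 1 is set against control 3 alone, as a description. The part of these transcripts in any result was not tested.

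**Figure D1:**
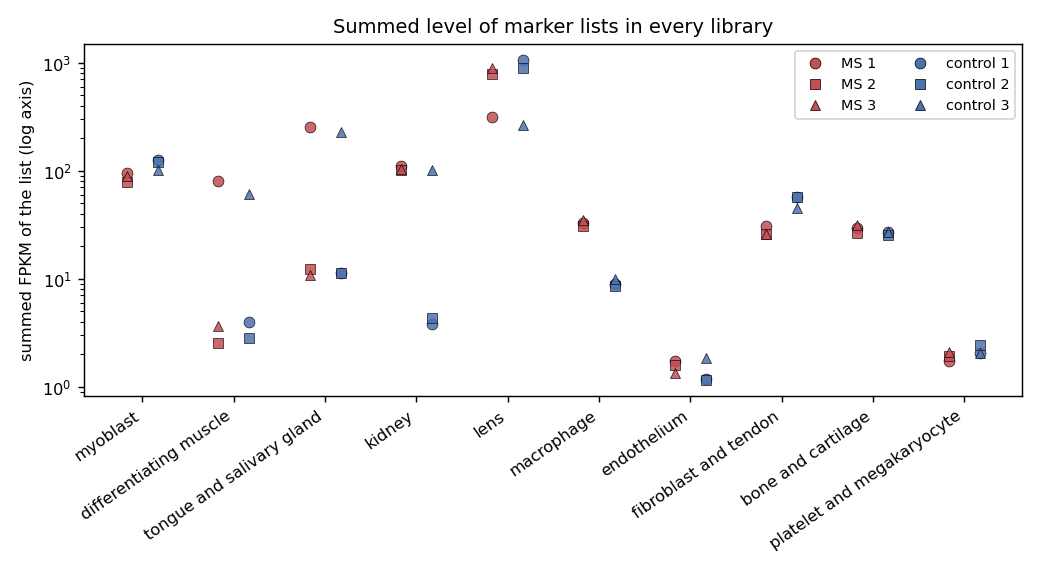
Summed FPKM (log axis) of 10 lists of marker genes, with 1 point per library (MS red, control blue, symbol by replicate number). Tongue and salivary gland genes stand high in MS 1 and control 3, and kidney genes stand low only in control 1 and control 2.

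Of the 10 genes, 8 were lower in every MS library than in every control library and 0 were higher in this way. Without MS 1 the counts were 9 and 1, with Spp1 also lower and Postn higher. Over all 12028 tested genes and with all 6 libraries, 26.8% were lower without overlap and 35.9% were higher, 62.7% in all. The members had been picked with this contrast known, so nothing is read from their count. Of the 9 that could be tested, 5 had a log2 fold change of -1 or lower, against 3.45% of all tested genes. Their median log2 fold change was -1.24, against 0.05 over all tested genes. In bulk RNA, fewer cells that make a transcript and less of it per cell cannot be told apart. The largest difference was in Thbs1 and the smallest among the 9 was in Spp1.

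**Figure D2:**
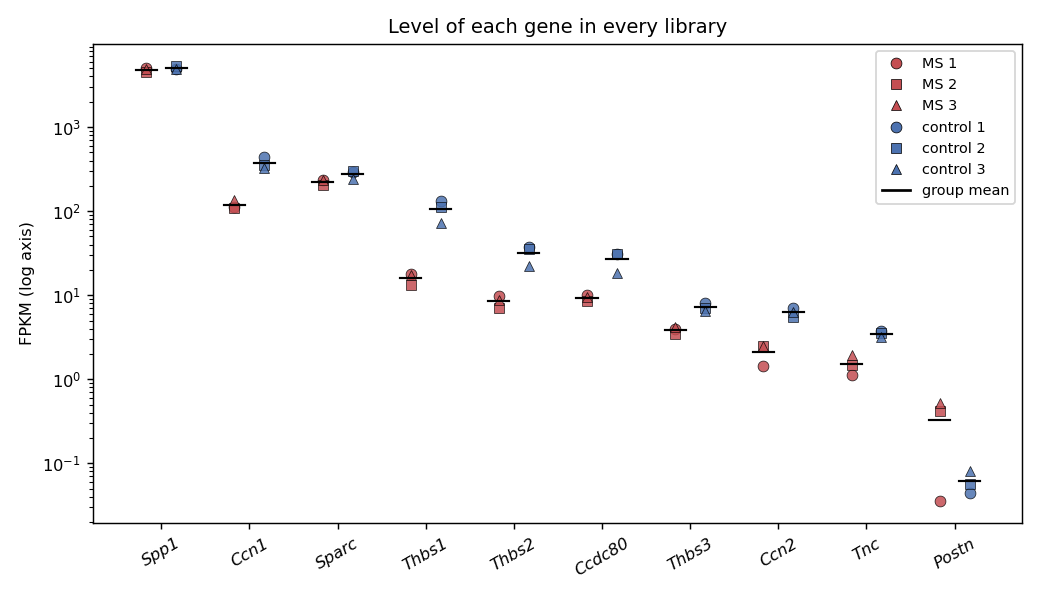
FPKM (log axis) of each of the 10 genes in every library, MS red on the left and control blue on the right of each gene, with symbols by replicate number and a bar at the group mean. Thbs1 has the largest fold change, with 13.4 to 17.7 FPKM in MS and 71.9 to 133 FPKM in control, while Spp1 averages 4802 FPKM in MS and 5048 FPKM in control.

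Of the 9 tested genes Thbs1 and Thbs2 differed most, and Thbs3 less. Thbs1 (ENSMUSG00000040152, chromosome 2, 117942357 to 117957614, plus strand, mm39) stood at 17.7, 13.4 and 17.2 FPKM in MS 1, 2 and 3, against 133, 111 and 71.9 FPKM in control 1, 2 and 3. The MS libraries lay close together and control 3 was the lowest control, and the groups were far apart. Means were 16.1 ± 2.36 FPKM in MS and 105 ± 31.0 FPKM in control (SD, n = 3 each), a ratio of 0.153. On the log2(FPKM + 1) scale, which understates changes at low levels, the fold change was -2.60 (SE 0.22), and 25 of the 12028 tested genes had a lower one.

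Thbs2 encodes the close relative that, like thrombospondin-1, forms trimers. Its gene (ENSMUSG00000023885, chromosome 17, 14885762 to 14914497, minus strand) had 9.76, 7.12 and 8.83 FPKM in MS 1, 2 and 3, against 37.5, 35.4 and 22.2 FPKM in control 1, 2 and 3. Control 3 was again the lowest control and still lay above every MS library. The log2 fold change was -1.75 (SE 0.20), and the MS mean was 27.0% of the control mean.

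Thbs3 belongs to the subgroup that forms pentamers. It had 3.94, 3.46 and 4.18 FPKM in MS 1, 2 and 3, against 8.14, 7.02 and 6.55 FPKM in control 1, 2 and 3 (ENSMUSG00000028047, chromosome 3, 89122487 to 89134144, plus strand). The groups did not overlap, and the log2 fold change was -0.76 (SE 0.09), with a ratio of means of 0.534. The row of Mtx1, which encodes a protein of the mitochondrial outer membrane, spans all of Thbs3 on the opposite strand, so with the strand setting of the counting not given the Thbs3 value is uncertain. Mtx1 averaged 10.6 ± 0.438 FPKM in MS and 9.29 ± 0.758 FPKM in control, so the lower Thbs3 level was not shared by the row that covers it.

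The 3 thrombospondins did not scale down in proportion. Thbs1 was 1.88 ± 0.0654 times the level of Thbs2 in MS and 3.31 ± 0.217 times in control (SD, n = 3 each). Thbs1 was 4.16 ± 0.315 times the level of Thbs3 in MS and 14.4 ± 2.96 times in control, a ratio as uncertain as the Thbs3 value that Mtx1 covers. Both ratios were lower in every MS library than in every control library, and a ratio within a library does not depend on how the library was scaled. Control 3, low for both Thbs1 and Thbs2, had a Thbs1 to Thbs2 ratio of 3.23, between those of control 1 and control 2.

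Both CCN genes were well below their control level. Ccn1, also called Cyr61 (ENSMUSG00000028195, chromosome 3, 145352731 to 145355736, minus strand), had 112, 109 and 134 FPKM in MS 1, 2 and 3, against 439, 358 and 323 FPKM in control 1, 2 and 3. Every MS library lay far below every control library. Means were 118 ± 13.9 FPKM in MS and 373 ± 59.6 FPKM in control (SD, n = 3 each). The log2 fold change was -1.64 (SE 0.13). Ccn1 ranked 387th by level among all rows in MS and 82nd in control.

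Ccn2, also called Ctgf, was far less abundant. It had 1.42, 2.47 and 2.49 FPKM in MS 1, 2 and 3, against 7.06, 5.58 and 6.34 FPKM in control 1, 2 and 3 (ENSMUSG00000019997, chromosome 10, 24471340 to 24474581, plus strand). MS 1 was the lowest library, and the groups did not overlap. The log2 fold change was -1.24 (SE 0.15), and the MS mean was 33.6% of the control mean, beside 31.7% for Ccn1. Ccn1 was 58.9 ± 17.9 times the level of Ccn2 in MS and 59.1 ± 7.20 times in control, and the libraries of the groups overlapped in this ratio, in contrast to the thrombospondins.

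Tenascin-C and periostin, partners in the matrix of healing tissue, were the least abundant. Tnc had 1.12, 1.49 and 1.93 FPKM in MS 1, 2 and 3, against 3.73, 3.53 and 3.21 FPKM in control 1, 2 and 3 (ENSMUSG00000028364, chromosome 4, 63878022 to 63965252, minus strand). The groups did not overlap, with a log2 fold change of -0.85 (SE 0.12) and an MS mean at 43.5% of the control mean. Postn (ENSMUSG00000027750, chromosome 3, 54268530 to 54298458, plus strand) had 0.0354, 0.420 and 0.528 FPKM in MS 1, 2 and 3, against 0.0445, 0.0566 and 0.0822 FPKM in control 1, 2 and 3. MS 2 and MS 3 were the highest libraries and MS 1 was the lowest of all 6, so the groups overlapped. At these levels Postn was below the filter, and the higher MS mean of 0.328 ± 0.259 FPKM, against 0.0611 ± 0.0192 FPKM in control, rests on MS 2 and MS 3.

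Sparc, a collagen-binding glycoprotein, was lower by a small margin. It had 232, 205 and 232 FPKM in MS 1, 2 and 3, against 295, 304 and 241 FPKM in control 1, 2 and 3 (ENSMUSG00000018593, chromosome 11, 55285326 to 55314009, minus strand). The groups came close without overlapping, since control 3 lay just above MS 1. The log2 fold change was -0.32 (SE 0.10), and MS 1 was at 96.4% of control 3 while MS 2 and 3 were at 72.9% of control 1 and 2.

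Spp1 was among the most abundant transcripts of these cells, ranking 2nd by level among all rows in MS and 3rd in control. It had 4982, 4557 and 4867 FPKM in MS 1, 2 and 3, against 4911, 5364 and 4870 FPKM in control 1, 2 and 3 (ENSMUSG00000029304, chromosome 5, 104582984 to 104588916, plus strand). The groups overlapped, with a log2 fold change of -0.07 (SE 0.06). Spp1 made up 1.59% of summed FPKM in MS and 1.54% in control. The share depends on those sums, which averaged 302063 ± 2832 FPKM in MS and 327396 ± 3350 FPKM in control. Osteopontin is also made by macrophages, and that list (12 of 12 genes found, Adgre1 at 0 in every library) summed to between 30.8 and 34.9 FPKM in MS and between 8.54 and 9.91 FPKM in control. Most of that sum in MS was Cd68, a lysosomal gene, with 24.8 to 29.7 FPKM in MS and 3.72 to 5.12 FPKM in control. Of the 12 genes 3 passed the filter, and Cd68 was called higher while Cd163 and Lyz2 were not called. Below the filter, C1qa, C1qb and C1qc were highest in MS 2 and MS 3, at 0.1945 to 0.746 FPKM. They were at 0.158 FPKM or less in MS 1 and 0.0803 FPKM or less in control. The leukocyte gene Ptprc stayed under 0.1 FPKM in every library.

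Ccdc80, a secreted protein that binds fibronectin and is grouped with the others by its place in the matrix, followed Thbs2. It had 9.93, 8.47 and 9.59 FPKM in MS 1, 2 and 3, against 30.8, 31.2 and 18.6 FPKM in control 1, 2 and 3 (ENSMUSG00000022665, chromosome 16, 44913765 to 44948440, plus strand). Control 3 was much lower than the other controls and still above all MS libraries. The log2 fold change was -1.40 (SE 0.19), and Ccdc80 was 1.10 ± 0.0874 times the level of Thbs2 in MS and 0.846 ± 0.0312 times in control.

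**Figure D3:**
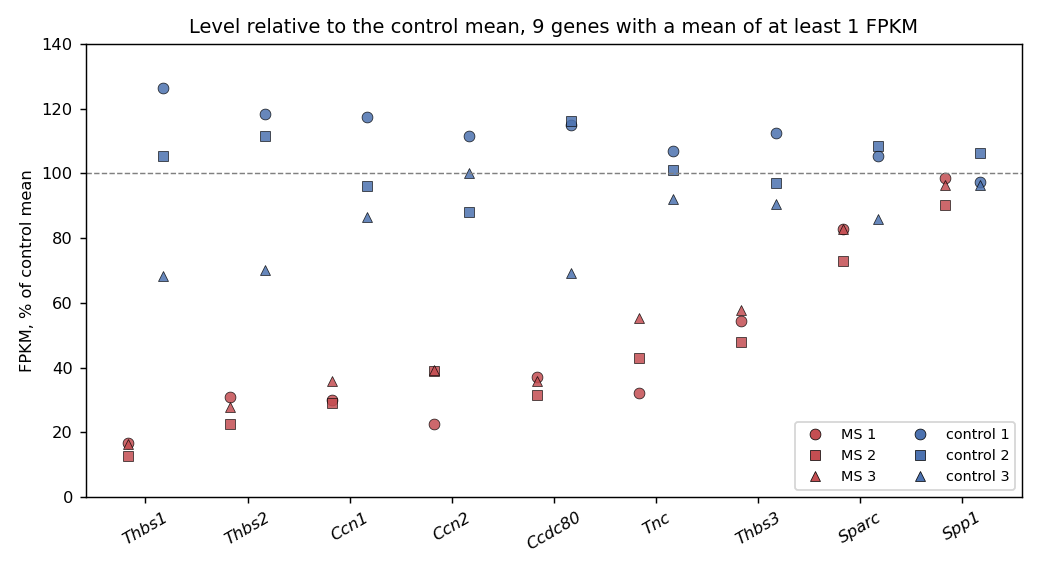
FPKM of the 9 genes that averaged 1 FPKM or more, as a percentage of the control mean of each gene, in every library (MS red, control blue, dashed line at 100%). The MS mean ranges from 15.3% for Thbs1 to 95.1% for Spp1, and control 3 stands apart from the other controls for Thbs1, Thbs2 and Ccdc80.

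The order of the genes by level changed in places. In MS it ran Spp1, Sparc, Ccn1, Thbs1, Ccdc80, Thbs2, Thbs3, Ccn2, Tnc and Postn, and in control Spp1, Ccn1, Sparc, Thbs1, Thbs2, Ccdc80, Thbs3, Ccn2, Tnc and Postn. Ccn1 was below Sparc in every MS library and above it in every control library. Of the 9 pairs of neighbours, the ranges over the 3 libraries were apart for 7 in MS, and overlapped for Ccdc80 with Thbs2 and for Ccn2 with Tnc. In control the ranges of 7 pairs were apart too, and overlapped for Thbs2 with Ccdc80 and for Thbs3 with Ccn2. Within 1 library, Ccdc80 was above Thbs2 in each MS library and below it in each control library. Without Spp1, the other 9 genes summed to 383 ± 30.7 FPKM in MS and 834 ± 133 FPKM in control (SD, n = 3 each).

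Variation within a group differed between the genes, a pattern that rests on control 3 and MS 1. Ccn2 and Tnc were also low, at 2.49 FPKM or less in every MS library. Control 3 stood at 58.9%, 61.1% and 59.8% of the mean of control 1 and control 2 for Thbs1, Thbs2 and Ccdc80, at 80.9% for Ccn1 and 80.4% for Sparc, at between 86.4% and 94.8% for Thbs3, Tnc and Spp1, and at 100.3% for Ccn2. MS 1 stood at 57.2% and 65.6% of the mean of MS 2 and MS 3 for Ccn2 and Tnc, and at between 92.0% and 122% for the other 7 tested genes. For Thbs1 the fold change was therefore -1.96 between MS 1 and control 3 and -2.92 between the other libraries, and for Thbs2 it was -1.11 and -2.07. For Ccdc80 it was -0.84 and -1.68. Ccn1 was nearly equal at -1.52 and -1.71, Thbs3 had -0.61 and -0.83, and Ccn2 and Tnc ran the other way, at -1.60 and -1.06 and at -0.99 and -0.78. Sparc had -0.05 between MS 1 and control 3 and -0.46 between the other libraries, and Spp1 had 0.03 and -0.12. The pairs that remain when control 3 and MS 1 are set aside also differ in kidney transcripts, which were high in MS 2 and MS 3 and low in control 1 and control 2.

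**Figure D4:**
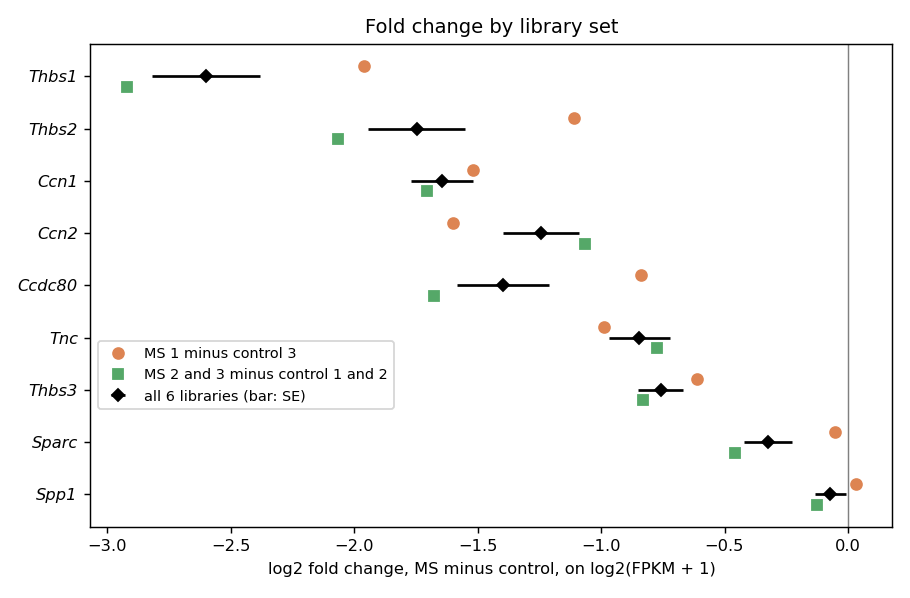
Log2 fold change on log2(FPKM + 1), MS minus control, for all 6 libraries (black, bar 1 SE), for MS 1 minus control 3 (orange) and for MS 2 and 3 minus control 1 and 2 (green). Thbs1, Thbs2 and Ccdc80 differ less between MS 1 and control 3, Ccn2 and Tnc differ more, and Sparc and Spp1 lie near 0 there.

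Neighbouring transcripts were examined because reads can be shared. An antisense row inside Thbs1, Gm29233, had 0.130, 0 and 0 FPKM in MS 1, 2 and 3, against 1.64, 0.969 and 0.251 FPKM in control 1, 2 and 3. As with Thbs1, its level was higher in every control library than in every MS library and highest in control 1, and its reads cannot be told apart from those of Thbs1 without the strand setting. Gm42793 lies within Spp1 on the same strand, with 9.19 ± 0.817 FPKM in MS and 7.42 ± 1.32 FPKM in control, far below Spp1 itself. Rows that overlap Ccn2 and Tnc on the opposite strand stayed under 0.11 FPKM in every library.

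The genes most like Thbs1 over the 6 libraries were Galnt18, Arl4c and Bmp4, with Pearson r of 0.9994, 0.9993 and 0.9992 on the log2(FPKM + 1) scale among the 7729 genes that averaged 5 FPKM or more. Bmp4, a secreted growth factor of the BMP family, had 11.1 ± 0.532 FPKM in MS and 22.6 ± 2.81 FPKM in control. As many as 954 genes had an r over 0.95 with Thbs1, so the likeness is shared widely. For Spp1 the closest were Mapkap1, Rnf13 and Cfap36 (r of 0.9917, 0.9747 and 0.9744), and 8 genes passed 0.95. For Postn they were Itpk1, Pop5 and Carm1 (r of 0.9927, 0.9816 and 0.97), and 6 genes passed. These values share library depth and treatment and have no test.

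Related genes were taken as lists, which were also drawn up with earlier results of these data known. Each gene was taken from the limma fit over all 12028 genes, in which 53.8% passed an adjusted p of 0.05. Of all tested genes 30.6% were called higher after stretch and 23.2% lower. That balance depends on the scaling: 3683 genes were higher and 2787 lower in the values as deposited, and 3094 higher and 3182 lower with median-ratio scaling. Of 30 other matricellular genes 17 were tested, of which 11 fell and 3 rose (82.4% called), with a median log2 fold change of -0.50. The median for MS 1 minus control 3 was -0.26, and 7 fell without control 1. Of the thrombospondin relatives Thbs4 and Comp, the CCN gene Ccn6, the tenascin Tnn, the SPARC relatives Smoc1 and Smoc2, and Tgfbi and Ibsp, none reached the filter, with group means of 0.345 FPKM or less. Dmp1, an acidic protein of bone matrix related to osteopontin, is named outside the rule because it had the largest decrease of the list. It fell to 0.352 ± 0.0330 FPKM in MS, against 2.47 ± 0.234 FPKM in control (-1.36, adjusted p = 3.88e-05).

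The tenascin relatives moved both ways, and the tested relative of Sparc with the largest change was lower. Tnr, a tenascin of nervous tissue, averaged 0.429 ± 0.166 FPKM in MS and 1.97 ± 0.530 FPKM in control (log2 fold change -1.05, adjusted p = 0.00136). Tnxb, the tenascin of connective tissue, rose to 11.5 ± 1.68 FPKM in MS, against 8.08 ± 0.238 FPKM in control (0.45, adjusted p = 0.00738). Sparcl1, the closest relative of Sparc, fell to 4.48 ± 1.18 FPKM in MS, against 8.62 ± 0.556 FPKM in control (-0.83, adjusted p = 0.00354). Fbln1, a fibulin that binds fibronectin, fell to 8.97 ± 0.627 FPKM in MS, against 22.3 ± 1.75 FPKM in control (-1.22, adjusted p = 3.08e-05). Lgals3, the sugar-binding galectin-3, rose to 760 ± 29.6 FPKM in MS, against 398 ± 8.62 FPKM in control (0.93).

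The other CCN genes were less clear. Ccn4 had 7.87 ± 0.284 FPKM in MS and 7.95 ± 1.48 FPKM in control, with a log2 fold change of 0.00 (adjusted p = 0.994). Ccn3 averaged 18.1 ± 2.82 FPKM in MS and 22.3 ± 0.899 FPKM in control (-0.30, adjusted p = 0.0447). Its call was lost without MS 2, MS 3 or any 1 of the controls (adjusted p from 0.0794 to 0.103) and without the filter on low values (adjusted p = 0.131). Ccn5, a CCN protein that lacks the C-terminal domain, averaged 0.721 ± 0.193 FPKM in MS and 1.83 ± 0.920 FPKM in control (-0.67, adjusted p = 0.0467). That call was lost without MS 1, MS 2, MS 3 or control 2 (adjusted p from 0.0673 to 0.117) and without the filter (adjusted p = 0.151).

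Genes with thrombospondin type 1 repeats, the module through which thrombospondin-1 binds CD36 and latent TGF-beta, were mostly lower where called. Of 49 such genes 16 were tested, of which 7 fell and 1 rose, with a median of -0.17. The share called in either direction, 50.0%, was near the 53.8% of all tested genes. By direction, 23.2% of all tested genes were called lower and 30.6% higher. Spon2, a secreted spondin, fell to 8.71 ± 1.5 FPKM in MS, against 24.9 ± 6.54 FPKM in control (-1.39, adjusted p = 0.00122). The protease Adamts1 fell to 4.65 ± 0.284 FPKM in MS, against 13.6 ± 3.74 FPKM in control (-1.34, adjusted p = 0.000752). Adamtsl5, a protease-like protein without the catalytic domain, rose (0.61), and without MS 3 the count of higher genes was 2. The median for MS 1 minus control 3 was -0.04.

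Of 33 receptors and surface partners of these proteins, 24 were tested, of which 14 fell and 4 rose (75.0% called), with a median of -0.28 (-0.13 for MS 1 minus control 3). The syndecans Sdc4 and Sdc3, heparan sulfate carriers, had the largest decreases, to 35.8 ± 0.652 FPKM in MS, against 64.5 ± 0.389 FPKM in control for Sdc4 (-0.83), and with a fold change of -0.80 for Sdc3. Vldlr (0.80) and Itgb2 (0.62) rose most. Named outside that rule for their roles, the osteopontin and thrombospondin receptor chains Itgav and Itgb3 fell by 0.32 and 0.44 on the log2 scale. Cd47, the receptor for the C-terminal part of thrombospondin-1, had 21.7 ± 0.457 FPKM in MS and 22.0 ± 0.712 FPKM in control (-0.02, 95% interval -0.13 to 0.09). Cd44, which binds osteopontin, had 31.1 ± 0.135 FPKM in MS and 30.4 ± 1.85 FPKM in control (0.03, 95% interval -0.09 to 0.16).

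TGF-beta ligands, latency proteins and signalling genes had 13 of 21 tested members lower and 2 higher (71.4% called; 27 listed), with a median of -0.21 (-0.08 for MS 1 minus control 3). Ltbp2 and Ltbp4, of the latent TGF-beta binding family, fell by 0.92 and 0.83 on the log2 scale. Smurf1, a ubiquitin ligase that acts on SMAD proteins, rose to 30.0 ± 0.806 FPKM in MS, against 15.6 ± 0.623 FPKM in control (0.91). Tgif1 was at 0.17, a call lost without MS 1, MS 2, control 1, control 2, or control 3 and MS 1 together, without the filter and with median-ratio scaling (adjusted p from 0.0680 to 0.121). Named outside the rule, the ligand Tgfb3 fell to 8.47 ± 0.779 FPKM in MS, against 13.2 ± 1.64 FPKM in control (-0.58, adjusted p = 0.0025), and the receptor Tgfbr2 fell by 0.67 on the log2 scale (adjusted p = 0.00209). The ligand Tgfb1 had 23.2 ± 1.81 FPKM in MS and 24.1 ± 0.457 FPKM in control (-0.06, 95% interval -0.20 to 0.09).

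YAP/TEAD and SRF/MRTF factors with their shared targets had 21 of 42 tested members lower and 8 higher (69.0% called; 45 listed), with a median of -0.16 (-0.10 for MS 1 minus control 3). Acta2, smooth muscle actin and an SRF target, fell most, to 30.7 ± 2.80 FPKM in MS, against 94.9 ± 6.09 FPKM in control (-1.60), and the YAP regulator Amot fell by 0.80 on the log2 scale. Tead4 (0.78) and Tpm1 (0.56) rose most. Named outside the rule, Ankrd1 and Amotl2, which share YAP regulation with Ccn1 and Ccn2, fell by 0.27 and 0.36 on the log2 scale. That was a smaller size than the -1.64 and -1.24 of the CCN genes. Other genes of the list did not fall with them: 13 were not called, among them Ajuba (0.00), Nuak2 (0.04) and Lats2 (-0.12), and Amotl1 was called higher (0.19). Yap1 was at -0.29 and Tead1 at -0.49, both lower, while the YAP paralog Wwtr1 was higher at 0.23.

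**Figure D5:**
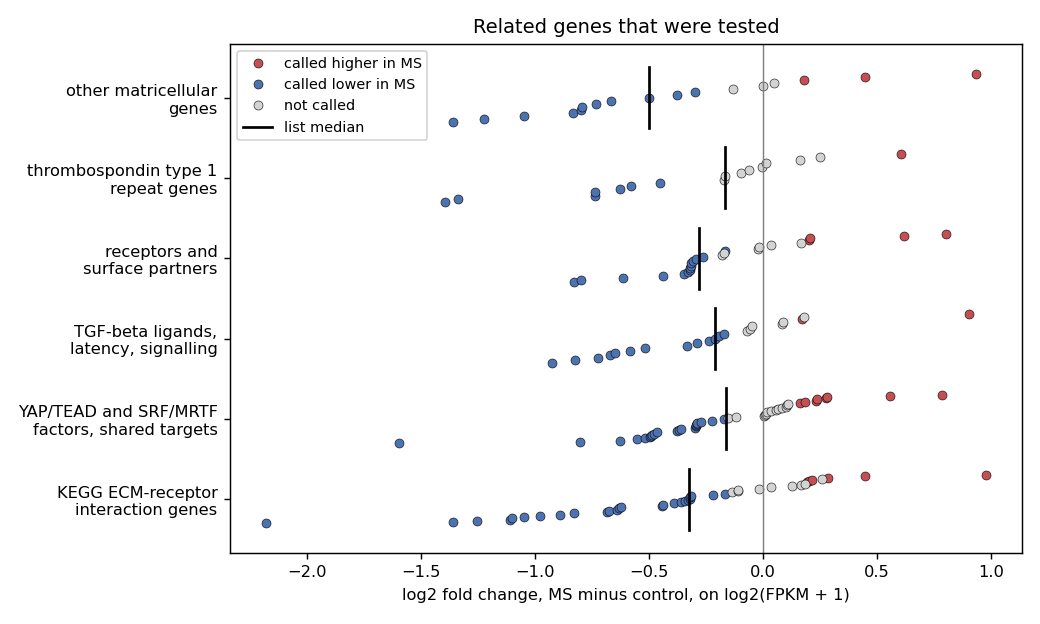
Log2 fold change on log2(FPKM + 1), MS minus control, of each tested gene in 6 lists of related genes, with the 10 genes left out (red, called higher; blue, called lower; grey, not called; black bar, list median). The medians lie between -0.50 for other matricellular genes and -0.16 for YAP/TEAD and SRF/MRTF genes, and each list but that of thrombospondin type 1 repeats has more than 53.8% of its genes called.

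In the deposited annotation, Thbs1, Thbs2, Thbs3, Tnc and Spp1 carry the KEGG terms for ECM-receptor interaction and focal adhesion, while the other 5 do not. Of the 79 other genes with the first term 40 were tested, of which 25 fell and 6 rose (77.5% called), with a median of -0.32 (-0.18 for MS 1 minus control 3). This list was added after the table had been read. Only the 10 genes were left out of it, so its genes can also be on the lists above and be counted again. Col1a1, a chain of type I collagen, fell to 16.8 ± 2.07 FPKM in MS, against 41.5 ± 6.21 FPKM in control (-1.25), and Itgb7 rose (0.98). The largest decrease was in Hmmr (-2.18), a hyaluronan-binding protein that also works on the mitotic spindle. Fibroblast and tendon markers, which such matrix genes can accompany, were found for 11 of 12 listed genes, and none was at 0 in every library. Of the 11, 6 were tested and all 6 were called lower, against 23.2% of all tested genes. Myoblast markers also had 6 called lower and 0 higher. The fibroblast and tendon sum was 26.0 to 31.0 FPKM in MS and 45.5 to 56.7 FPKM in control. Bone and cartilage genes (11 of 12 found) summed to 26.4 to 31.3 FPKM in MS and 25.4 to 27.2 FPKM in control. Of these genes 4 passed the filter, with Bglap2 called higher and Dmp1 called lower. Platelet genes (8 of 8) summed to 1.72 to 2.08 FPKM in MS and 2.05 to 2.43 FPKM in control. For endothelial genes (10 of 10) the sums were 1.33 to 1.74 FPKM in MS and 1.15 to 1.83 FPKM in control. No gene of these 3 lists was at 0 in every library. Their part in the results was not tested.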

How the data were processed

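Poly(A) RNA from 3 MS and 3 control C2C12 libraries was measured. The authors deposited FPKM values, 1 per gene and library, per the file headers. Per the submitters' processing notes the build was mm39 and the tools were StringTie 2.1.6, HISAT2 2.2.1, cutadapt 1.9, edgeR and DESeq2, with no role given. The sources used here do not give filters, strand settings or the handling of multi-mapping reads. Since FPKM are no counts, count models were left out. Symbols came from a GENCODE M21 name table by Ensembl ID, matching 31077 of 32815 rows.

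Genes that averaged 1 FPKM or more were tested on log2(FPKM + 1) with limma 3.58.1 in R 4.3.3 (lmFit and trended eBayes, two-sided, Benjamini-Hochberg over 12028 genes). A gene was called at an adjusted p under 0.05. The fit was tested on simulated data. P-values measure the spread between these libraries only.

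The members and lists were chosen with earlier results of these data known. Named from each list were the 2 largest called changes up and down with a group mean of at least 5 FPKM, and paralogs of the members. Motifs were searched in RefSeq windows (GRCm38.p6). The numbers of the replicates gave no sign of pairing, and whether libraries were handled in pairs could not be decided. The 13 alternatives covered the pseudocount, the filter, the scaling, terms for the library set or replicate number, and left-out libraries.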

Additional observations from a re-analysis of the deposited data

How the results depend on the processing

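Of the 13 alternatives, 4 (both filters, the replicate block and the library set as a term) cannot change a gene's fold change in this balanced design. Under the other 9 the fold changes of the 9 tested genes kept their sign. They ranged from -2.92 to -2.41 for Thbs1, from -2.07 to -1.61 for Thbs2, from -1.74 to -1.52 for Ccn1 and from -0.13 to -0.03 for Spp1. The fold change of Ccn2 was -1.50 and that of Tnc -1.11 with a pseudocount of 0.25. With control 3 and MS 1 left out, or MS 1 alone, 9 of the 10 genes were lower and 1 was higher without overlap. Without the filter on low values 3 genes with thrombospondin type 1 repeats were higher and 11 lower, and 1 TGF-beta gene was higher. With a mean of at least 5 FPKM, fewer genes were tested, and 6 other matricellular genes and 4 with type 1 repeats were lower. With median-ratio scaling 9 of the 10 genes were lower without overlap, against 8, and the added gene was Spp1. With that scaling, and without control 3 and MS 1, 1 TGF-beta gene was higher. Leaving out each library in turn gave 0 to 1 of the 10 genes higher without overlap, 7 to 10 other matricellular genes lower, 1 to 2 genes with type 1 repeats higher and 1 to 2 TGF-beta genes higher. The causes were not tested.

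Deviations of same-numbered libraries from their group means correlated at -0.334, 0.245 and -0.372, so the numbers gave no sign of pairing. The highest correlation, 0.456, was between MS 1 and control 3, which were alike in tongue, lens and muscle transcripts. The values therefore cannot decide whether same-numbered libraries were handled in pairs. With the replicate number as a block 3323 genes were higher and 2567 lower, against 3683 and 2787, and 1 TGF-beta gene was higher. Among the genes named, the calls of Ccn5 (adjusted p = 0.0808) and Tgif1 (adjusted p = 0.0912) were lost. With an unknown depth, no floor can be set for low values such as those of Postn.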
